A study of Homo sapiens with 8 samples.

Results

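Broad H3K4me3 domains were chosen by width, as autosomal islands of H3K4me3 at least 4000 bp wide that overlapped no H3K27me3 island of the same cell line. They numbered 832 of the 10593 autosomal H3K4me3 islands of HT and 1323 of the 13281 of SUDHL6, 2155 in all among the 24650 H3K4me3 islands of both lists on all chromosomes. HT and SUDHL6 are established cell lines, both from diffuse large B cell lymphoma and both left untreated, and ChIP-seq of H3K4me3, H3K27me3 and EZH2 was compared at baseline. Each line had 1 library per antibody and 1 deposited list of enriched islands on hg19, so the lines were compared without a test. Intervals beside shares are 95% Clopper-Pearson intervals, which are exact and reflect counting error alone. No source used here gives the sequencing depth, so where a list has no island the mark may still be present.

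H3K4me3 is trimethylation of lysine 4 of histone H3, laid down by the SET1 and MLL methyltransferases and usually held to a short stretch around active promoters. Broad H3K4me3 domains, which reach from the promoter into the gene body, are known from other cell types for marking genes of cell identity and tumour suppressor genes. EZH2 is the methyltransferase of Polycomb repressive complex 2 and writes H3K27me3, a mark of silenced genes that is usually exclusive of broad H3K4me3.

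Since the domains were selected on their width and on H3K27me3 of their own line, both are given as a description. In HT the domains had a median width of 4800 bp and a range of 4050 to 26850 bp, and they held 4.64 Mb, or 18.6% of the H3K4me3 length in 7.85% of the autosomal islands. In SUDHL6 the median was 4950 bp, the widest domain 48750 bp, and the domains held 8.03 Mb, 24.9% of the length in 9.96% of the islands. The median autosomal island was 2100 bp wide in both lines. Just inside the limit, at 4050 bp, lay 118 HT and 141 SUDHL6 domains, and just outside it, at 3900 bp, 125 and 154 islands. A further 31 HT and 40 SUDHL6 islands passed the width but carried H3K27me3 of their own line and were left out.

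The widest domains of both lines met on the long arm of chromosome 9. In HT, domains that ranked 1 and 4 by width lay from 68445301 to 68472150 (26.85 kb) and from 68472751 to 68495100 (22.35 kb), and both overlapped a single SUDHL6 domain from 68442601 to 68491350 (48.75 kb), which covered all of the wider one and 83.2% of the other. On chromosome 1, an HT domain from 148865401 to 148890750 (25.35 kb) overlapped a SUDHL6 domain of 20.55 kb from 148865551 to 148886100. All 10 of the widest HT domains met an H3K4me3 island of SUDHL6, whereas 5 of the 10 widest SUDHL6 domains met an island of HT. Among SUDHL6 domains with no HT island, the widest was a 45.9 kb domain of chromosome 21, from 10108801 to 10154700. Next came a 28.65 kb domain of chromosome 1, from 143491951 to 143520600. HT had its widest domain with no SUDHL6 island on chromosome 16, from 34003651 to 34017450 (13.8 kb), with another of equal width on chromosome 9.

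Most domains of either line lay where the other line also had H3K4me3, of whatever width. Of the HT domains, 717 of 832 (86.2%, interval 83.6 to 88.5%) overlapped an H3K4me3 island of SUDHL6, against 74.5% of all autosomal HT islands. Of the SUDHL6 domains, 955 of 1323 (72.2%, 69.7 to 74.6%) overlapped an HT island, against 59.2% of all autosomal SUDHL6 islands. A wide island meets others more often by its size alone, and by the middle base of the island the margin was small. The middle base lay in an island of the other line for 71.4% of HT domains and 69.1% of all HT islands, and for 56.5% of SUDHL6 domains and 54.1% of all SUDHL6 islands. Read by length, the order turned: 61.8% of HT domains, against 66.4% of all HT islands, were covered over at least 50% of their length, as were 46.3% of SUDHL6 domains and 51.8% of all SUDHL6 islands.

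Sharing did not increase further with width among the domains. HT islands of 3 to 4 kb overlapped SUDHL6 H3K4me3 in 88.5% of cases and those of 8 kb or wider in 77.8%. In SUDHL6 the same classes gave 72.2% and 62.4%. The share with the middle base in an island of the other line was lower still in the widest class, 47.2% in HT and 38.2% in SUDHL6. Width and position are mixed in these classes, which are not split by position here. Of the domains of 10 kb or wider, 42.2% in HT and 54.4% in SUDHL6 lay within 5 Mb of the chromosome's longest island-free stretch. Domains there were shared less often, as given below.

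**Figure D1:**
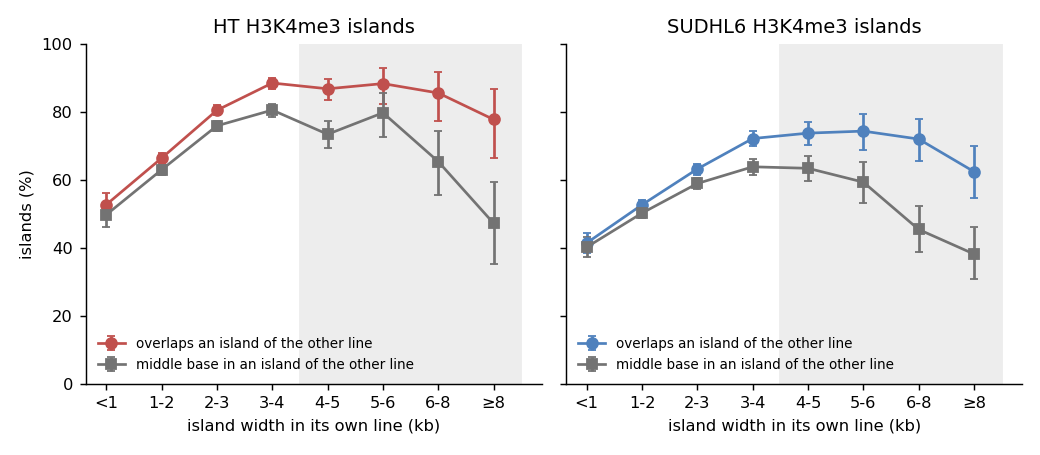
Share of autosomal H3K4me3 islands without H3K27me3 of their own line (%) by width in that line (kb), for HT (left) and SUDHL6 (right), with exact 95% intervals; circles mark any overlap with an H3K4me3 island of the other line, squares the middle base lying in one, and shading marks the broad domains. Both shares are higher from the narrowest class up to 3 to 4 kb, and at 8 kb or wider the middle-base share is down to 47.2% in HT and 38.2% in SUDHL6.

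The same site was broad in both lines in a minority of cases. Overlapping domains of the lines made up 292 pairs, of 274 HT domains (38.2% of those shared) and 275 SUDHL6 domains (28.8% of those shared). The same share over all shared islands is not given here. These values therefore do not show whether domains meet domains more or less often than other islands do. In these pairs the median width was 5100 bp in HT and 5550 bp in SUDHL6, and 147 pairs were within 1.25-fold of each other. The median pair had 62.8% of its joint length covered in both lines. By the narrower partner, the leading pairs were those on chromosome 9 and chromosome 1 given above, followed by one on chromosome 16, where a 17.55 kb HT domain from 32797801 to 32815350 lay inside a SUDHL6 domain of 27000 bp.

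At shared sites a domain of one line usually stood over a narrower island of the other, as its choice by width in 1 line makes likely. The widest SUDHL6 island at an HT domain had a median width of 3450 bp, and the widest HT island at a SUDHL6 domain 3150 bp. The log2 width ratio, HT over SUDHL6, had a median of 0.51 (quartiles 0.02 and 1.05) at the HT domains and -0.71 (quartiles -1.19 and -0.28) at the SUDHL6 domains, against 0.00 at all shared islands of either list. HT was at least 2-fold wider at 204 of 717 HT domains (28.5%, against 10.0% of all shared HT islands). SUDHL6 was at least 2-fold wider at 28 of them (3.91%, against 12.3%). At the SUDHL6 domains, HT was at least 2-fold wider in 12 of 955 cases (1.26%, against 10.8%) and SUDHL6 in 329 (34.5%, against 11.0%). The rule used width, so these shares against all islands are a description and not support for a difference between the lines.

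**Figure D2:**
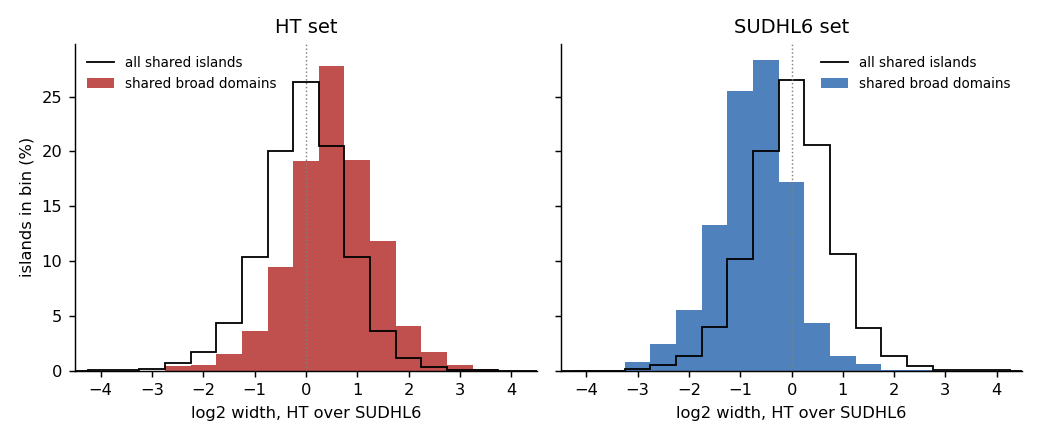
Log2 width ratio HT over SUDHL6 at shared sites in bins of 0.5, for the HT set (left) and the SUDHL6 set (right), in percent of the islands of each set; filled bars are broad domains and the black outline is all shared autosomal islands of the same line. The HT domains centre on 0.51 and the SUDHL6 domains on -0.71, on either side of the outline's 0.00.

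Some sites showed a domain in one line over a very short island in the other. On chromosome 11 an HT domain from 119038201 to 119044800 (6.6 kb) stood over a SUDHL6 island of 0.6 kb, a log2 ratio of 3.46. On chromosome 10 an HT domain from 75528151 to 75546600 (18.45 kb) met SUDHL6 islands of which the widest was 2.55 kb (log2 ratio 2.86), and on chromosome 11 one from 116636851 to 116651850 (15.0 kb) met 1 of 2.1 kb (2.84). In the other direction, a SUDHL6 domain on chromosome 11 from 2405401 to 2412000 (6.6 kb) stood over an HT island of 0.45 kb (-3.87). A SUDHL6 domain on chromosome 2 from 89065351 to 89078700 (13.35 kb) met an HT island of 1.35 kb (-3.31).

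Where exactly 1 island of each line met, the edges show on which side the domain was longer. Edges were called equal within 300 bp. Of 624 such HT domains, 34.5% reached further than the SUDHL6 island at both edges and 31.7% at 1 edge with the other equal. Of 850 such SUDHL6 domains, the shares were 39.6% and 32.6%. Both edges were equal in 4.17% of the HT and 3.18% of the SUDHL6 cases. Among domains longer by 1500 bp or more, 166 of 329 in HT (50.5%) and 279 of 535 in SUDHL6 (52.1%) had at least 80% of the excess on 1 side. Domains were chosen by width in their own line, so a longer reach follows in part from the rule. The same shares over all shared islands are not given here, so they cannot be read as particular to the domains. Without gene positions on hg19, the side could not be read as upstream or downstream of a gene.

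The authors' score, a value per island whose unit no source used here gives, comes from the same libraries as the rule and was used only within each list. Per kb of width, HT domains had a median score of 30.4, against 34.3 for all autosomal HT islands, and SUDHL6 domains a median of 32.1, against 32.0. As percentiles of the own list these medians were 39.3 in HT and 50.2 in SUDHL6. Domains without H3K4me3 in the other line scored low. The 115 such HT domains had a median of 22.3 per kb and the 717 shared ones 32.2, and 108 of the 115 lay under the median of the list. The 368 such SUDHL6 domains had a median of 19.8 and the 955 shared ones 36.7, and 316 of the 368 lay under the list's median. The same split over all autosomal islands is not given here, so low scores without sharing cannot be read as particular to the domains. The part of low scores in the lack of an island in the other line was not tested.

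EZH2 of HT lay at the domains of both lines more often than EZH2 of SUDHL6 did, whichever line the domain came from. HT EZH2 overlapped 116 of 832 HT domains (13.9%, 11.7 to 16.5%), against 8.28% of all autosomal HT islands, and 206 of 1323 SUDHL6 domains (15.6%, 13.7 to 17.6%), against 7.74%. SUDHL6 EZH2 overlapped 24 HT domains (2.88%, 1.86 to 4.26%), against 2.23%, and 34 SUDHL6 domains (2.57%, 1.79 to 3.57%), against 1.96%. EZH2 of both lines lay at 7 HT domains (0.841%, against 0.585% of all HT islands) and 20 SUDHL6 domains (1.51%, against 0.617%). All autosomal islands include those with H3K27me3 of their own line, which the domains leave out. A wide island also meets EZH2 more often by its size alone, so these are not like sets. The lists differ in length, with 2523 EZH2 islands in HT and 1506 in SUDHL6. With the HT list held to its 1506 highest scores, HT EZH2 lay at 10.9% of HT and 12.1% of SUDHL6 domains. The shares of all islands above, 8.28% and 7.74%, are for the full HT list and are no background for these 2 values.

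These shares differed with width too. HT EZH2 lay at 4.26% of HT islands under 1 kb, 14.8% of those of 4 to 5 kb and 13.9% of those of 8 kb or wider. Of SUDHL6 islands it lay at 5.27% in the first of these classes, 14.1% at 4 to 5 kb and 20.6% at 8 kb or wider, so the widest class had the highest of these 3 shares in SUDHL6 but not in HT. By length, HT EZH2 covered 10.3% of the HT domains and 7.55% of all HT islands, and 9.58% of the SUDHL6 domains and 7.18% of all SUDHL6 islands. SUDHL6 EZH2 covered 2.06% of the HT domains and 1.82% of all HT islands, and 1.92% of the SUDHL6 domains and 1.89% of all SUDHL6 islands. Where HT EZH2 met a domain it covered much of it, with a median of 77.1% of an HT domain and 64.8% of a SUDHL6 domain.

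**Figure D3:**
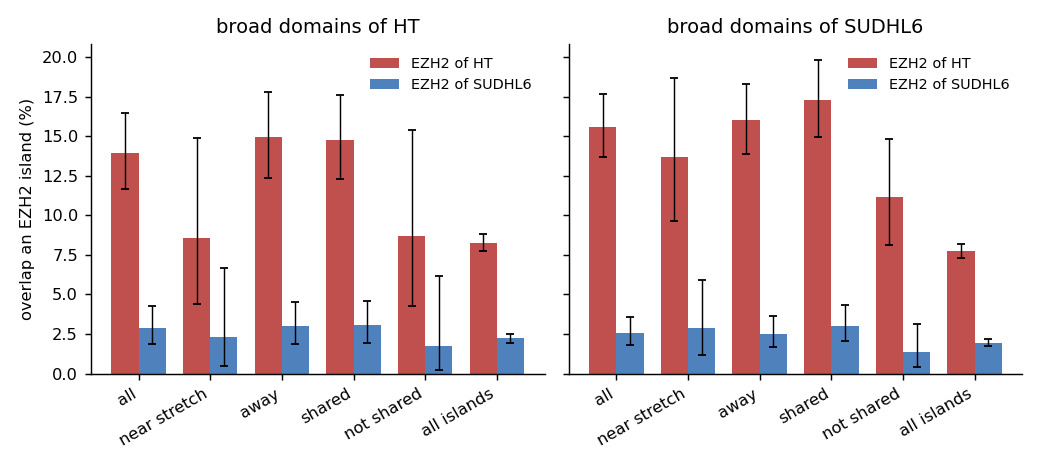
Share of broad H3K4me3 domains of HT (left) and SUDHL6 (right) that overlap an EZH2 island of HT or of SUDHL6 (%), with exact 95% intervals, for all domains, those near and away from the island-free stretch, those shared and not shared with the other line, and all autosomal H3K4me3 islands. EZH2 of HT is the higher bar in every class, at 13.9% of HT and 15.6% of SUDHL6 domains.

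The EZH2 of these domains lay, by the rule, outside H3K27me3 of the domain's own line. On chromosome 19 the HT domain from 48406651 to 48429450 (22.8 kb) had 89.5% of its length under HT EZH2 and 90.8% under SUDHL6 EZH2, and SUDHL6 H3K27me3 covered 66.4% of it. The domain on chromosome 10 that was short in SUDHL6 had 83.7% of its length under HT EZH2 and none under SUDHL6 EZH2. A 12.75 kb HT domain on chromosome 11, from 119073301 to 119086050, lay wholly under HT EZH2 and met a SUDHL6 island of 2.4 kb. In SUDHL6 the domain with the most EZH2 lay on chromosome 2 from 91656301 to 91683000 (26.7 kb), with 53.9% under SUDHL6 EZH2 and 61.2% under HT EZH2. A SUDHL6 domain on chromosome 9 from 37030051 to 37037250 (7.2 kb) was wholly under SUDHL6 EZH2, while HT EZH2 covered 10.4% of it.

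H3K27me3 of the other line was rare at the domains. SUDHL6 H3K27me3 overlapped 22 of 832 HT domains (2.64%, 1.66 to 3.98%), against 3.12% of all autosomal HT islands. HT H3K27me3 overlapped 82 of 1323 SUDHL6 domains (6.20%, 4.96 to 7.64%), against 4.56%. Sites with the domain in one line and H3K27me3 without H3K4me3 in the other numbered 5 for HT (0.601%, against 1.25% of all autosomal HT islands) and 36 for SUDHL6 (2.72%, against 2.77%), so neither share stood above its background. Of the 82 SUDHL6 domains with HT H3K27me3, 60 (73.2%) also had HT EZH2, as had 146 of the 1241 without it (11.8%). At the HT domains, SUDHL6 EZH2 lay at 5 of the 22 with SUDHL6 H3K27me3 and at 19 of the 810 without it. The same split over all autosomal islands is not given here, so it cannot be read as particular to the domains.

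The clearest such sites by covered length were in SUDHL6. A domain on chromosome 1 from 145201651 to 145215750 (14.1 kb) lay wholly in HT H3K27me3, with 61.7% under HT EZH2, and one from 120605701 to 120614850 (9.15 kb) was wholly covered as well, with 75.4% under HT EZH2. Both lay within 5 Mb of the chromosome's island-free stretch. A domain on chromosome 13 from 46956001 to 46965600 (9.6 kb) did not, and HT H3K27me3 covered 82.8% of it and HT EZH2 45.3%. None of these 3 had HT H3K4me3. In HT the leading site lay on chromosome 1 from 145472101 to 145478400 (6.3 kb), with SUDHL6 H3K27me3 over 45.2% of its length, HT EZH2 over 97.6% and no SUDHL6 EZH2, within 5 Mb of the island-free stretch. Next, a domain on chromosome 19 from 12899701 to 12904800 (5.1 kb) was wholly under SUDHL6 EZH2 and had SUDHL6 H3K27me3 over 50% of its length. Neither had SUDHL6 H3K4me3. These sites were picked for their covered length after the values were seen.

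Over all domains, more than the background share lay near the longest stretch of each chromosome without an island of any of the 6 lists, and this held for the domains of lower score per kb only. Within 5 Mb of it lay 128 HT domains (15.4%, 13 to 18%), against 9.47% of all autosomal HT islands, and 241 SUDHL6 domains (18.2%, 16.2 to 20.4%), against 10.6%. Of the 50% of domains with the highest score per kb, 6.94% in HT and 7.09% in SUDHL6 lay there, against 7.30% and 7.40% of the islands of each list chosen the same way. Of the remaining domains, 23.9% in HT and 29.4% in SUDHL6 lay there, against 11.6% and 13.9% of the remaining islands. Within 1 Mb of it 24.1% of HT islands and 29.7% of SUDHL6 islands were broad domains, and over 50 Mb away 6.61% and 7.51%. Of the domains of 10 kb or wider, 19 of 45 in HT (42.2%) and 49 of 90 in SUDHL6 (54.4%) lay within 5 Mb. The 10 widest domains had 4 in HT and 9 in SUDHL6 there. On chromosomes 2, 4, 8 and 12 the longest stretch is not at the centromere, so wide domains close to a centromere there count as away from the stretch. Examples are the SUDHL6 domains on chromosome 2 at 91656301 and on chromosome 4 from 49246201 to 49264800 (18.6 kb). On chromosome 21 the stretch runs from base 1 to 9.41 Mb and is not at the centromere either.

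**Figure D4:**
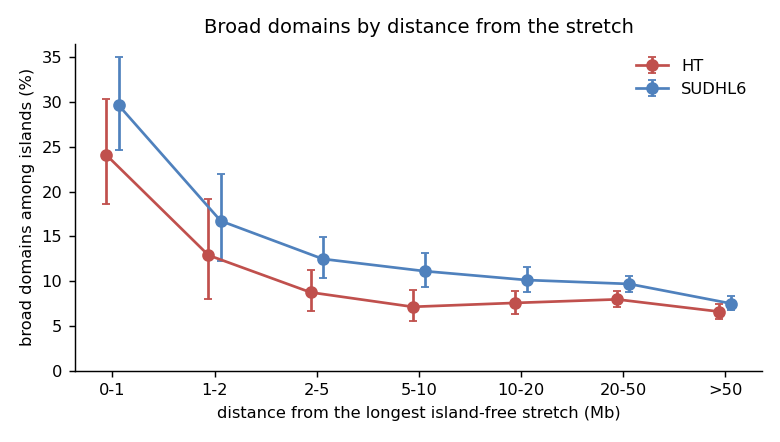
Broad domains as a share of autosomal H3K4me3 islands (%) by distance from the longest island-free stretch of the chromosome (Mb), for HT and SUDHL6, with exact 95% intervals. The share is 24.1% in HT and 29.7% in SUDHL6 within 1 Mb and 6.61% and 7.51% over 50 Mb away.

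Domains near the stretch were shared less often, and had a lower score per kb, than those away from it in both lines. All H3K4me3 islands showed the same order. In HT, 68.8% (60.0 to 76.6%) of the near domains and 89.3% (86.8 to 91.5%) of those away met SUDHL6 H3K4me3, against 68.0% of all near and 75.2% of all away HT islands. In SUDHL6 56.0% (49.5 to 62.4%) of the near domains and 75.8% (73.1 to 78.3%) of those away met HT H3K4me3, against 47.8% of all near and 60.6% of all away SUDHL6 islands. Score per kb had a median of 24.2 at near and 32.0 at away HT domains, against 29.6 and 34.7 over all HT islands, and of 23.3 at near and 34.5 at away SUDHL6 domains, against 24.8 and 32.9 over all SUDHL6 islands. Near the stretch the log2 width ratio at HT domains had a median of 0.12, and away from it 0.58; at SUDHL6 domains the medians were -0.69 and -0.72. HT EZH2 lay at 8.59% of near and 14.9% of away HT domains, and at 13.7% of near and 16.0% of away SUDHL6 domains. Shares with EZH2 over all near and all away islands are not given here. The input samples were not used here, so signal near the stretch was not set against input.

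Another domain of the same line lay within 50 kb of 24.6% of HT and 31.9% of SUDHL6 domains, against 8.52% of all autosomal HT islands and 12.8% of all SUDHL6 islands. Of the domains near the stretch this held for 54.7% in HT and 60.2% in SUDHL6. The shares of all islands above are for the autosomes as a whole, and none is given for all islands near the stretch. The SUDHL6 domain on chromosome 16 from 33071401 to 33098550 (27.15 kb) held 3 HT domains of 5.1 to 5.7 kb that were separated only by the smallest distance in the lists, 600 bp. Neighbours of this kind share a segment and are not independent.

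By chromosome, the lines differed in where their domains were dense. On chromosome 6 there were 42 HT and 166 SUDHL6 domains, or 7.22% of HT islands and 19.2% of SUDHL6 islands there. Chromosome 7 had 50 HT domains (9.14% of HT islands) and 140 SUDHL6 domains (15.1% of SUDHL6 islands), and chromosome 9 had 36 (7.55%) in HT and 116 (14.4%) in SUDHL6. HT, although its set is the smaller one, had more domains on chromosomes 5, 10, 11, 16, 19 and 22. The margin was widest on chromosome 10, with 60 HT domains (11.7% of islands) and 36 SUDHL6 domains (7.13%), chromosome 11, with 78 HT and 56 SUDHL6 domains, and chromosome 19, with 43 HT domains (6.06%) and 27 SUDHL6 domains (3.61%). On chromosomes 5, 16 and 22 the counts were 65, 61 and 10 in HT, against 60, 55 and 8 in SUDHL6. The order on chromosome 16 did not hold away from the island-free stretch, where HT had 37 domains and SUDHL6 43. Near the stretch of that chromosome HT had 24 and SUDHL6 12. By length, too, SUDHL6 domains held more of chromosome 16, with 416.1 kb against 359.4 kb in HT.

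**Figure D5:**
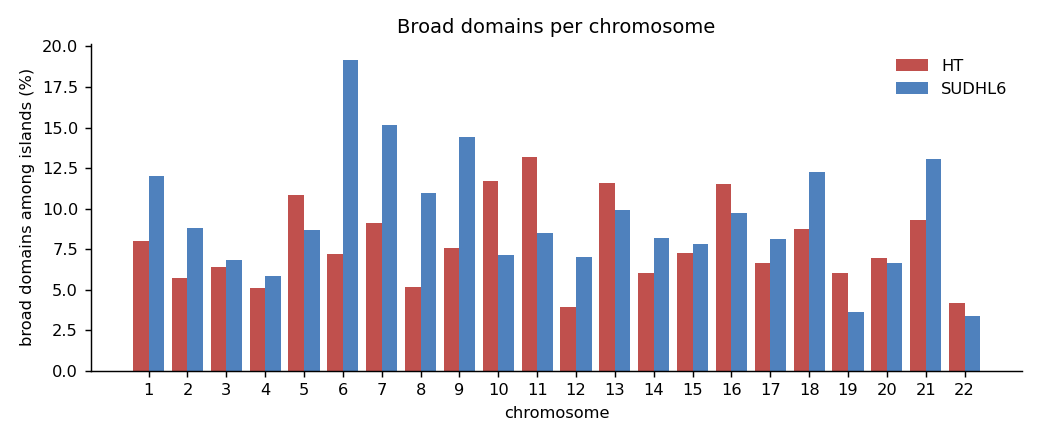
Broad domains as a share of autosomal H3K4me3 islands (%) on chromosomes 1 to 22, HT to the left of SUDHL6. SUDHL6 stands highest on chromosome 6 at 19.2%, against 7.22% in HT, and HT stands highest on chromosome 11 at 13.2%, against 8.47% in SUDHL6.

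In windows of 10 Mb the counts of the lines differed most between 140 and 150 Mb of chromosome 1, with 32 HT and 69 SUDHL6 domains, of which 12 and 43 lay near the stretch. Between 60 and 70 Mb of chromosome 7 the counts were 13 in HT and 34 in SUDHL6, with 13 and 30 near the stretch. The other windows named here held no domain near it. Between 110 and 120 Mb of chromosome 11 there were 28 HT domains and 4 SUDHL6 domains, and 46.7% of the HT islands there were broad. Between 70 and 80 Mb of chromosome 10 the counts were 27 in HT and 2 in SUDHL6, and between 100 and 110 Mb of chromosome 11 they were 18 and 3. HT had 11 domains and SUDHL6 47 between 30 and 40 Mb of chromosome 6, HT 3 and SUDHL6 31 between 20 and 30 Mb of it, and HT 5 and SUDHL6 30 between 70 and 80 Mb of chromosome 7. The 10 fullest windows held 22.2% of the HT and 24.3% of the SUDHL6 domains.

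The other marks followed the domains in some of these segments. Over 110 to 120 Mb of chromosome 11, H3K27me3 islands covered 2699 kb in HT and 422 kb in SUDHL6, and over 70 to 80 Mb of chromosome 10 they covered 1318 kb in HT and 319 kb in SUDHL6. EZH2 islands covered 208 kb in HT and 76.65 kb in SUDHL6 in the chromosome 11 window, and 96.75 kb in HT and 22.95 kb in SUDHL6 in the chromosome 10 window. Over 30 to 40 Mb of chromosome 6, H3K27me3 covered 597 kb in HT and 1841 kb in SUDHL6, and EZH2 120.0 kb in HT and 336 kb in SUDHL6. In these 3 of the windows named above every antibody had more covered length in the line with more domains. The same held over 100 to 110 Mb of chromosome 11 and over 70 to 80 Mb of chromosome 7. The part of this in the domain counts was not tested, and how often it held over all windows is not given here. Over 20 to 30 Mb of chromosome 6 EZH2 did not follow, with 66.75 kb in HT and 39.15 kb in SUDHL6. Between 140 and 150 Mb of chromosome 1, the fullest window of both lines, H3K27me3 and EZH2 went against the counts of domains. H3K27me3 covered 321 kb in HT and 44.55 kb in SUDHL6, and EZH2 covered 165 kb in HT and 49.35 kb in SUDHL6. Both also went against the counts over 60 to 70 Mb of chromosome 7, by little for H3K27me3. There H3K27me3 covered 33 kb in HT and 30.6 kb in SUDHL6, and EZH2 57.15 kb in HT and 22.05 kb in SUDHL6.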

How the data were processed

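Each library has 1 deposited list of islands with chromosome, start, end and a score. This deposited score is the authors' value per island, its unit is not given in the sources used here, and it was used only within its list. Islands come from SICER on hg19, per the submitters' processing notes, and the names of the files add a 150 bp window, a 450 bp gap and 1E-7 as FDR. Normalization tags in the names differ between H3K27me3 and the other antibodies, so levels were not compared between antibodies. Aligner, control and depth are not given in the sources used here, and the 2 input samples were not used here.

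Positions are counted from 1. Islands were shared when they overlapped by at least 1 bp, and width ratios used the widest island met. The island-free stretch was taken over all 6 lists, from base 1 to the first island or between neighbouring islands. With 1 library per line and antibody no test was run. Overlaps and the search for the stretch were tested on simulated data. Regions named are the leading ones by width, excess or deficit of width, lack of sharing, EZH2 length and joint width; those named for H3K27me3 of the other line, or as away from the stretch, were added after the values were seen. The domains and rules were chosen with earlier results of these data known. Planned counts of genes and cell type markers were not run, for want of gene positions on hg19, and no sequence is shown. Alternatives changed the minimum width, joining, set size, score, H3K27me3, overlap, distance and stretch. Python 3.11.15, numpy 2.4.6, pandas 2.3.3, scipy 1.17.1 and matplotlib 3.10.9 were used.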

Additional observations from a re-analysis of the deposited data

Results flagged for a closer look

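Score per kb of broad domains, set against the other autosomal islands of the same list, differed in sign between the lines, with a value close to 0 in SUDHL6. The median of the domains minus that of the other islands was -4.30 in HT and 0.143 in SUDHL6. The sign for H3K27me3 from the other line differed as well, and in HT the 3.16% of the other islands lies inside the counting interval of the domains, 1.66 to 3.98%. Domains minus other islands, in percentage points with H3K27me3 of the other line, gave -0.511 in HT and 1.82 in SUDHL6. Neither difference between the lines was tested, since each line had 1 library.

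The X chromosome lay outside the rule. It held 8 HT islands of at least 4000 bp without HT H3K27me3, up to 8250 bp wide, of which 3 met a SUDHL6 island, and 3 such SUDHL6 islands, of which 2 met an HT island.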

How the results depend on the processing

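Across the alternatives no median width ratio changed sign. Each alternative still chose domains by width in their own line, which makes these signs likely, so their holding is a description only. Under the alternatives 41 values stayed inside the 95% interval of the reported value and 33 moved outside it. Some of the values could not move. The 832 widest HT islands are the whole HT set, and a shorter HT EZH2 list leaves SUDHL6 EZH2 as it was. Other alternatives, such as distance and 50% cover, changed the measure itself. These counts therefore do not show how stable the results are. Sharing, for HT and SUDHL6 domains, was 82.4% and 67.9% at a minimum width of 6000 bp, 96.4% and 92.5% for the 50% of domains with the highest score per kb, 61.8% and 46.3% with at least 50% of the domain covered, 71.4% and 56.5% by the middle base, and 89.3% and 75.8% without domains near the stretch. The median log2 width ratio was 0.37 and -0.49 from 3000 bp and 0.71 and -1.07 from 6000 bp, and for SUDHL6 domains -0.85 with the 832 widest islands of each line and -0.64 for the highest scores per kb. EZH2 of the same line lay at 11.0% of HT domains from 3000 bp, at 4.44% of SUDHL6 domains from 6000 bp, covered at least 50% of 10.7% of HT and 1.66% of SUDHL6 domains, and with the shorter HT EZH2 list, an addition after the data were seen, lay at 10.9% of HT domains. That list lay at 12.1% of SUDHL6 domains.

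The share near the stretch, for HT and SUDHL6 domains, was 10.9% and 13.7% from 3000 bp and 30.7% and 31.1% from 6000 bp. For the 832 widest SUDHL6 islands it was 21.5%. Over all autosomal islands of any width the share was 9.47% and 10.6%. For the highest scores per kb it was 6.94% and 7.09%, against 7.30% and 7.40% of the islands of each list chosen the same way. Within 2 Mb lay 8.77% and 10.2% of the domains, and within 10 Mb 23.0% and 27.3%. The shares of all islands within 2 and 10 Mb are not given here, so these values have no background beside them. Whether near domains are enriched over input was not tested. No paired analysis was possible because each line had 1 library per antibody and no test was run. Depth is unknown, so how far it limits sharing cannot be told.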
